A study of Mus musculus with 2 samples.

Results

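The Zfp36 mRNA-decay proteins and the BTG/TOB family were followed across the 4 channels of 2 dual-color arrays, every gene being taken by its symbol on the array. The members are Zfp36, Zfp36l1 and Zfp36l2, and Btg1, Btg2, Btg3, Tob1 and Tob2, which makes 8 of 28233 named genes, and 9 of 35777 probes that carry a gene name. All are present, Btg1 with 2 probes and the others with 1. Each probe was printed as 1 spot and was well above background in all 4 channels, so no member was lost to a filter on low signals.

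RNA came from immortalized mouse embryonic fibroblasts (MEF), Rosa26ERT2 Cre: THOC5 (flox/flox), of the C57BL/6 x B6:129 Ola background. Control cells carried the same floxed alleles and the same Cre but got no tamoxifen, and the labels call them wildtype. THOC5-depleted cells got tamoxifen for 2 days, which lets Cre, expressed from the broadly active Rosa26 locus, enter the nucleus and remove the floxed part of the gene, and the labels call them a knockdown. THOC5 is a subunit of the THO complex, which acts in mRNA processing and export, and the series asks how it affects the 3′ ends of immediate early genes, those that serum switches on within minutes.

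On each array Cy3 carried unstimulated cells, which the authors describe as serum-starved, and Cy5 starved cells given fetal calf serum (FCS) for 1 h. There was 1 array for control and 1 for THOC5-depleted cells, no dye exchange, and 1 cell line, so no p-value or error between cultures can be given. Tamoxifen and loss of THOC5, like dye and serum, cannot be told apart. In bulk RNA, fewer cells with a transcript and less of it per cell cannot be told apart either.

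Zfp36 proteins bind AU-rich elements in the 3′ part of short-lived mRNAs through a pair of zinc fingers, and bring in the CCR4-NOT complex, which removes the poly(A) tail. BTG and TOB proteins slow cell proliferation and bind the deadenylase subunits CNOT7 and CNOT8 of the same complex. In fibroblasts, Zfp36 and Btg2 are known as fast serum-response genes, and the Zfp36 protein is known to act on the mRNAs of cytokines and growth regulators that serum induces.

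Zfp36 and Btg2 had the highest serum ratios of the members, and these were about equal with and without THOC5 in the signals as deposited, though not once the ratios of both arrays were scaled to one spread (log2 difference -0.62 for Zfp36 and -0.82 for Btg2, higher in depleted cells). The Zfp36 ratio of serum over unstimulated signal was 4.05 in control cells and 3.83 after THOC5 depletion, and that of Btg2 was 4.89 and 4.92. The other members had ratios of 1.20 to 1.61 in control cells. Btg3 was the only one of the 8 whose ratio differed by 1.3 times or more between the arrays, at 1.61 in control and 1.05 in depleted cells, and its probe also lists a pseudogene. Of all genes, 8.33% had a ratio that much higher in control cells and 10.2% one that much higher in depleted cells, so 1 of 8 is near the background.

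The sequences that show what may bind these genes and transcripts are given first. The probes are 60 bases long and copy the transcript, and the short word ATTTA, the core of AU-rich elements, was searched on the transcript strand, as was the longer form TTATTTAT, which is the preferred site of the Zfp36 proteins and contains the core word. The core word was in 8.01% of all 39429 probes (at least 2 copies in 0.533%), and the longer form was in 0.424%. Of the 9 member probes, those of Zfp36 and Btg3 held 2 copies of the core word and 1 of the longer form, and the downstream probe of Btg1 held 1 copy of the core word. For each of these a stretch of 30 bases is shown, with matches that lie whole in the stretch in capitals.
Zfp36: ttatgacgactTTATTTATtgtattaagat
Btg3: tactttatggagagtatataagTTATTTAT
Btg1 downstream: ttaaatcagtcggATTTAtgaataacttca

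The probe is only a short piece of each transcript, so these are matches of letters and not binding sites. In the mm9 coordinates of the files, the Zfp36 stretch belongs to the probe at chr7:29161940-29161999 on the minus strand, the Btg3 stretch to chr17:50839065-50839124 on the plus strand and the Btg1 stretch to chr10:96085358-96085417 on the plus strand. The remaining 6 member probes held no core word. They lie at chr12:81209022-81209081 (Zfp36l1, minus strand), chr17:84583415-84583474 (Zfp36l2, minus strand), chr10:96082071-96082130 (Btg1, plus strand), chr1:135972094-135972153 (Btg2, minus strand), chr11:94075956-94076015 (Tob1, plus strand) and chr15:81679488-81679547 (Tob2, minus strand). Whether a probe lies in a coding exon or an untranslated region was not determined, as no annotation of that build was used here.

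RefSeq promoter sequences of the members (GRCm38.p6, 250 bases before to 50 after the start) were searched on both strands for short words. The matches are of letters only, and binding was not tested. Of the 8 members, 7 had an entry, Btg3 with 2 entries and Zfp36l2 with none. The words were the CRE, the site of CREB (TGACGTCA, in 1.79% of 32851 promoters), the CArG box of the serum response factor (in 1.63%), the EGR site (GCGGGGGCG or GCGTGGGCG, in 3.47%), the AP-1 site (TGACTCA, in 5.2%) and the TATA word (TATAAA, in 13.6%). Also searched were 3 shorter words found in many promoters, the CRE core (TGACG, inside the CRE, in 20.8%), CCAAT (in 37.4%) and the GC box (GGGCGG, in 35.7%). Only the CRE and CArG matches and the EGR match are printed, with the word in capitals.
Btg2, CRE: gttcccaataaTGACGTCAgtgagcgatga
Zfp36, CArG box: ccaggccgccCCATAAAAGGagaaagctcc
Zfp36, EGR site: cgagctacgccGCGGGGGCGcgtcccggaa

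These stretches are read along the transcript strand, which is the minus strand for both genes. The Btg2 stretch is chr1:134079303-134079332, and its word begins at base -166 from the start. The Zfp36 stretches are chr7:28379267-28379296 and chr7:28379315-28379344, with words at -58 and -105. TATAAA was found in the promoters of Btg1, Tob1 and Zfp36l1, and the AP-1 words in no member's promoter window. The CRE core was in the windows of Btg1, Btg2 and Tob1, CCAAT in those of Btg1, Btg2, Btg3, Tob1 and Zfp36l1, and the GC box in those of Btg1, Btg2, Btg3, Tob1, Tob2 and Zfp36. Windows without a match simply do not hold these letters.

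Each array had 43020 spots other than control spots, of which 62.1% to 64.4% were well above background by channel, and 0 of these spots were saturated. Thoc5 itself had signals of 4808 (unstimulated) and 3047 (serum) in control cells and of 546 and 455 in THOC5-depleted cells, so unstimulated depleted cells had 0.141 of the control level after scaling between the arrays. All 8 fibroblast marker genes examined were well above background, with levels in unstimulated depleted cells from 0.412 (Pdgfra) and 0.457 (Col3a1) of control to 1.19 (Thy1), and with Vim, Col1a1 and Fn1 at 1.01 to 1.06. The part of these differences in the members' values was not tested. Of 13 markers of epithelial, leukocyte, endothelial, neural and muscle cells, Itgam, Kdr and Tubb3 had unstimulated control signals of 6314, 902 and 5548, and each of the others at most 65.9. Among these dim markers Cdh5 was at 0.563 of control in unstimulated depleted cells, Cd68 and Ptprc were well above background on the depleted array only (unstimulated signals of 24.6 and 14.4) and Epcam on the control array only (32.1). Probes printed as 10 spots gave a median SD of the log2 ratio of 0.029 on the control array and 0.031 on the depleted one, which is spread within an array only. The 10 probes of spiked-in RNA had log2 ratios 0.24 higher on the depleted array on average (0.15 to 0.31, which is 1.18-fold in the mean).

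Zfp36, the founding member also called tristetraprolin, had processed signals of 385 in unstimulated and 1558 in serum-treated control cells. In THOC5-depleted cells its signals were 353 and 1351. It was low in both unstimulated channels and high in both serum channels, with no overlap. The serum ratio was 4.05 in control cells (log2 2.02) and 3.83 in depleted cells (log2 1.94), a log2 difference of 0.08 where spots of similar brightness give an SD of 0.04. Its ratio exceeded that of 99.3% of measured genes in control cells and that of 99.8% in depleted cells.

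Zfp36l1, a close relative that also acts in development and in cell quiescence, had signals of 3465 and 4877 in control cells. In depleted cells they were 2183 and 3408. Serum channels were higher than unstimulated ones on both arrays, and the depleted array had the lower signals. The ratio was 1.41 in control (log2 0.49) and 1.56 in depleted cells (log2 0.64), which is 1.11 times higher in depleted cells.

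Zfp36l2, known for its part in early embryos and blood cells, had signals of 22069 and 26475 in control cells and of 18083 and 25543 in depleted cells. Its unstimulated signals were the lower of each pair. The serum ratio was 1.20 in control cells (log2 0.26) and 1.41 in depleted cells (log2 0.50). It was thus 1.18 times higher in depleted cells. The log2 differences of Zfp36l1 and Zfp36l2 (-0.15 and -0.24) exceed the SD between spots (0.03 and 0.02), but the spiked-in RNA moved in the same direction by a mean of 0.24. That shift bears on the ratio differences of all 8 members, small ones such as those of Zfp36, Btg1 and Btg2 included, and its part in them was not tested.

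Among the antiproliferative genes, Btg2, also known as Tis21 or PC3, had the highest serum ratio. Its signals were 2017 and 9874 in control cells and 1191 and 5859 in depleted cells (values before scaling). Both serum channels lay far above both unstimulated channels, and both depleted signals lay below their control counterparts. The ratio was 4.89 in control (log2 2.29) and 4.92 in depleted cells (log2 2.30), a log2 difference of -0.007 against an SD of 0.03 between spots. Btg2 stood above 99.5% of measured genes in control cells and above 99.9% in depleted cells.

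Btg1, first found near a translocation in leukemia, was measured by 2 probes whose positions lie 3287 bases apart. The upstream, brighter probe had signals of 17553 and 28332 in control cells and of 15865 and 25739 in depleted cells. Its ratio was 1.61 and 1.62 (log2 0.69 and 0.70), so the serum channel was higher by about the same factor on both arrays as deposited. With the ratios scaled to one spread the log2 difference of this probe was -0.255, higher in depleted cells. The downstream probe had signals of 120 and 226 in control cells and of 147 and 251 in depleted cells. Its ratio was 1.88 in control (log2 0.91) and 1.71 in depleted cells (log2 0.77), a log2 difference of 0.14 with an SD of 0.07 between spots. Both probes were thus higher with serum on both arrays, and the dimmer one is the less precise.

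Btg3 was the member whose serum ratio differed most between the arrays as deposited. With the ratios scaled to one spread its log2 difference was 0.50, less than the sizes for Zfp36 and Btg2. The control signals were 23722 and 38235, and those of depleted cells 21813 and 22832. The serum channel of control cells stood alone as the high value, and the other 3 channels lay close together. The ratio was 1.61 in control cells (log2 0.69) and 1.05 in depleted cells (log2 0.07). Their log2 difference of 0.62 (1.54 times) compares with an SD of 0.02 between spots and lay above that of 96.6% of measured genes, though inside the central 95% of all genes (-0.70 to 0.71). The probe lists 2 transcripts, that of Btg3, which RefSeq places on chromosome 16, and that of Gm7334, a transcribed pseudogene on chromosome 17, where the files place the probe. Signal from the one cannot be told apart from signal from the other, so the difference is uncertain as one of Btg3.

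Tob1 and Tob2 bind the poly(A)-binding protein as well as the deadenylase. Tob1 had signals of 600 and 729 in control cells and of 401 and 516 in depleted cells. Tob2 had 1469 and 1975 in control cells and 1178 and 1483 in depleted cells. Both genes were somewhat higher with serum on both arrays. The Tob1 ratio was 1.22 and 1.29 and the Tob2 ratio 1.34 and 1.26, with log2 differences of -0.08 and 0.09 against SDs of 0.04 and 0.03 between spots.

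**Figure D1:**
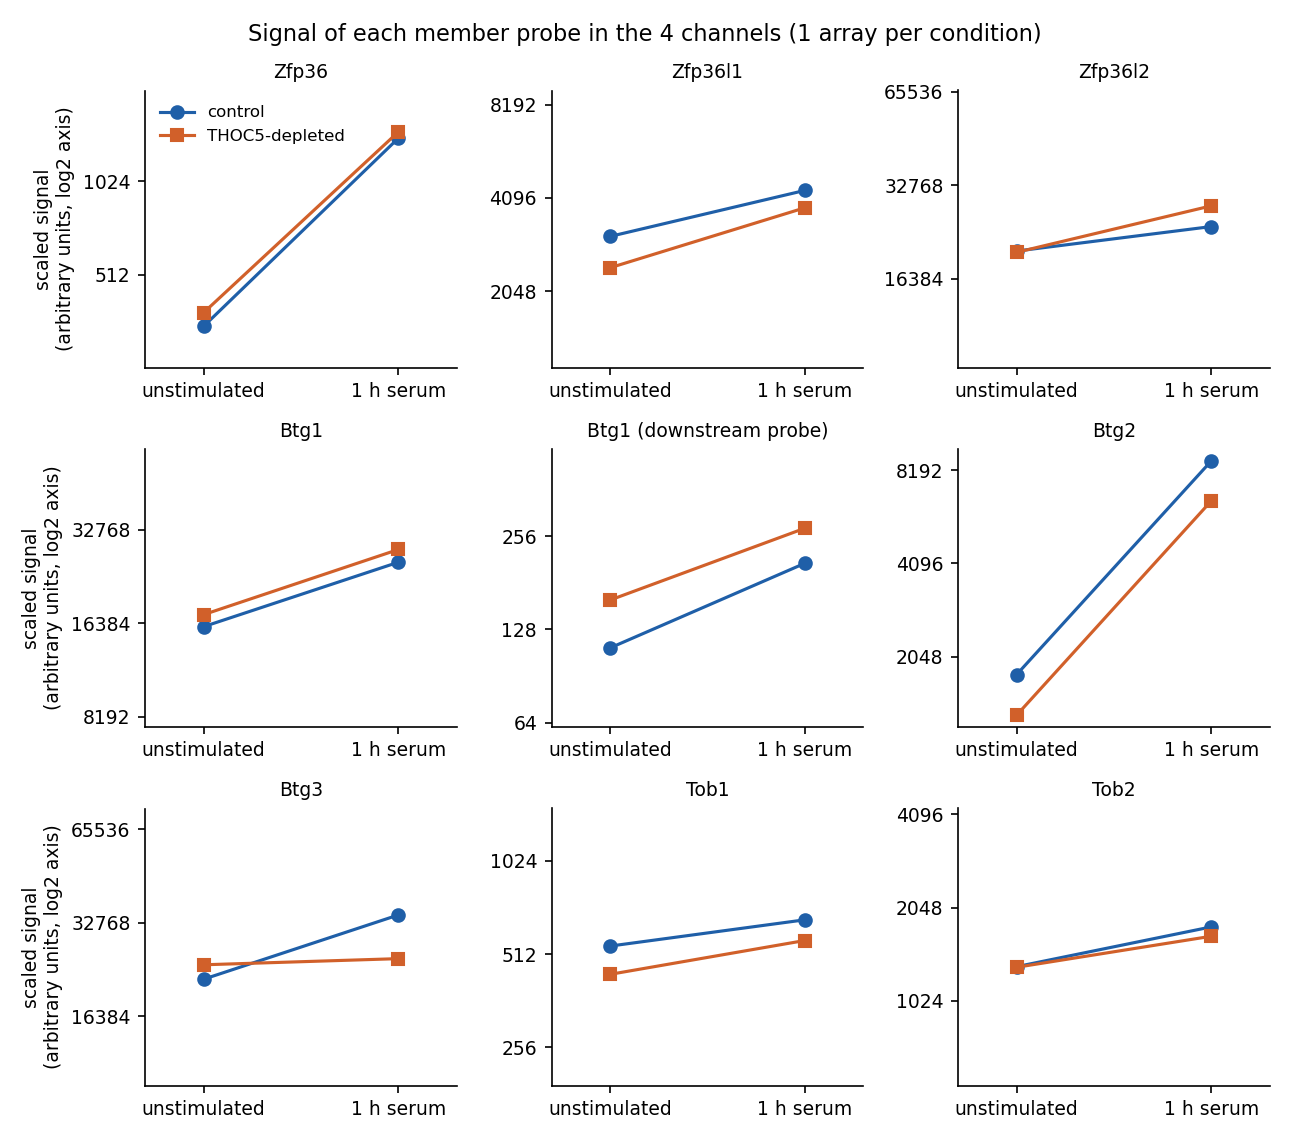
Signal of each of the 9 member probes in unstimulated and serum-treated cells, scaled between the arrays, on log2 axes of equal span in arbitrary units (blue circles, control; orange squares, THOC5-depleted; 1 array each, lines join the channels of an array). The pairs of lines are steepest for Zfp36 and Btg2, and they diverge most for Btg3, where only the control line rises clearly.

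Counted over genes, 2 of 8 members were induced 2-fold or more in control cells, where 2.36% of 17747 measured genes were. The same 2, Zfp36 and Btg2, passed in depleted cells, where 0.865% of 17813 genes did. No member was lowered 2-fold by serum, against 1.53% of all genes in control and 0.258% in depleted cells. At 1.5-fold the count was 4 on each array, against 6.27% and 3.03% of all genes. Zfp36, Btg1 and Btg2 passed that lower limit on both arrays, Btg3 (1.61) in control cells only and Zfp36l1 (1.56) in depleted cells only.

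All 8 members had a serum ratio above 1 on both arrays, while 47.0% and 47.3% of all measured genes did. The members' median log2 ratio was 0.59 in control and 0.57 in depleted cells, against -0.02 and -0.01 for all genes. In control cells the order was Btg2, Zfp36, Btg1, Btg3, Zfp36l1, Tob2, Tob1 and Zfp36l2, in which Btg1 and Btg3 (both log2 0.69) and Tob1 and Zfp36l2 (0.28 and 0.26) did not differ beyond the SD between spots. In depleted cells Btg2, Zfp36 and Btg1 again led, with Btg3 last, and Tob1 and Tob2 (0.36 and 0.33) did not differ beyond that spread. The 3 Zfp36 genes ranged from 0.26 to 2.02 in control and from 0.50 to 1.94 in depleted cells. For the BTG/TOB genes these ranges were 0.28 to 2.29 and 0.07 to 2.30, so both families held 1 strongly induced gene beside weakly induced ones.

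**Figure D2:**
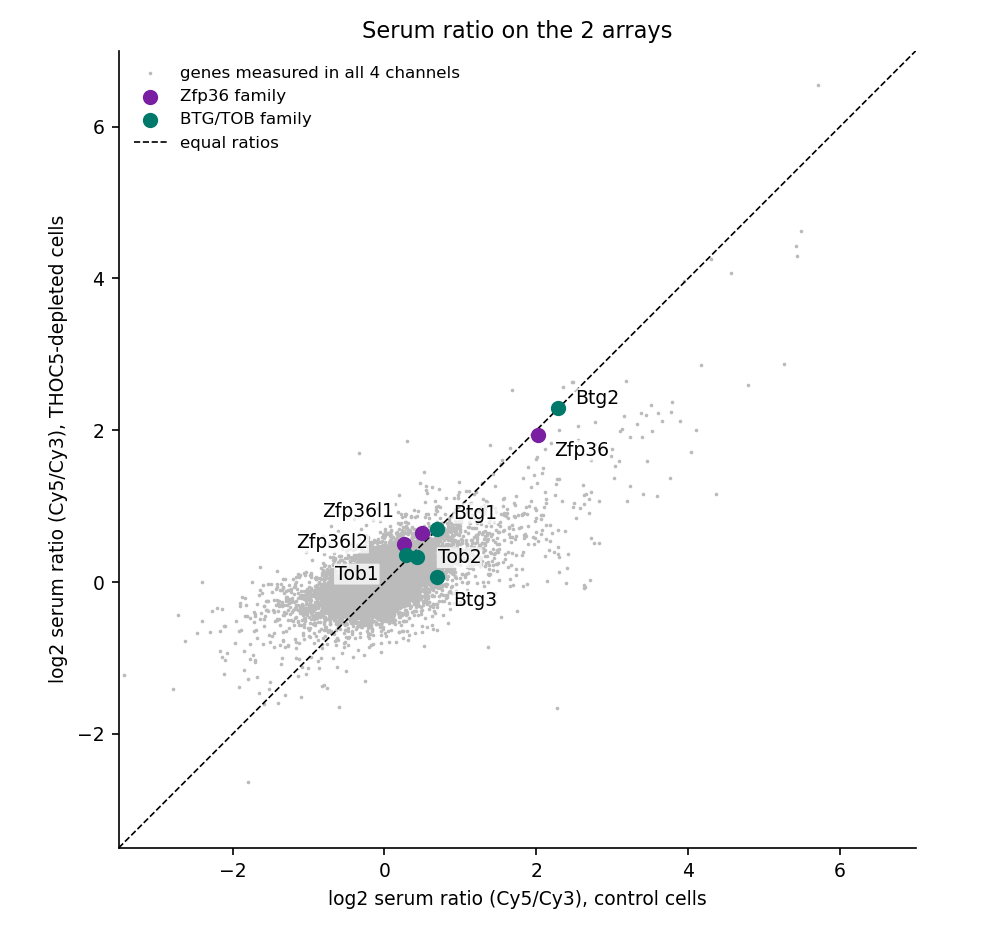
Log2 serum ratio in control cells (horizontal axis) and in THOC5-depleted cells (vertical axis) for genes measured in all 4 channels (grey) and for the members (purple, Zfp36 family; green, BTG/TOB family), with a dashed line of equal ratios. Btg2 and Zfp36 lie on or next to the line at about 2 on both axes, and Btg3 lies below it.

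The ratio of 1 of the 8 members was 1.3 times or more higher in control than in depleted cells, against 8.33% of 17194 genes, and 0 had one at least 1.3 times higher in depleted cells, against 10.2%. The ratios spread more widely on the control array (SD 0.289 from the median absolute deviation of log2 ratios, against 0.205), and when both were scaled to one spread Zfp36 (-0.62) and Btg2 (-0.82) passed 1.3 times in the direction of depleted cells. Among the genes induced 1.5-fold or more in control cells, however, 66.0% had a ratio 1.3 times or more above that of depleted cells, and 0.559% one 1.3 times or more below it. Of the 4 members in that class, 1 (Btg3) and 0 did, so Zfp36, Btg1 and Btg2 were in the minority. Picking genes by their control ratio favors ratios that are high there. Picked by the depleted array instead, 36.0% of genes had the higher ratio in control and 17.8% in depleted cells, and of the 4 members picked that way (Zfp36, Zfp36l1, Btg1 and Btg2), 0 had either.

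**Figure D3:**
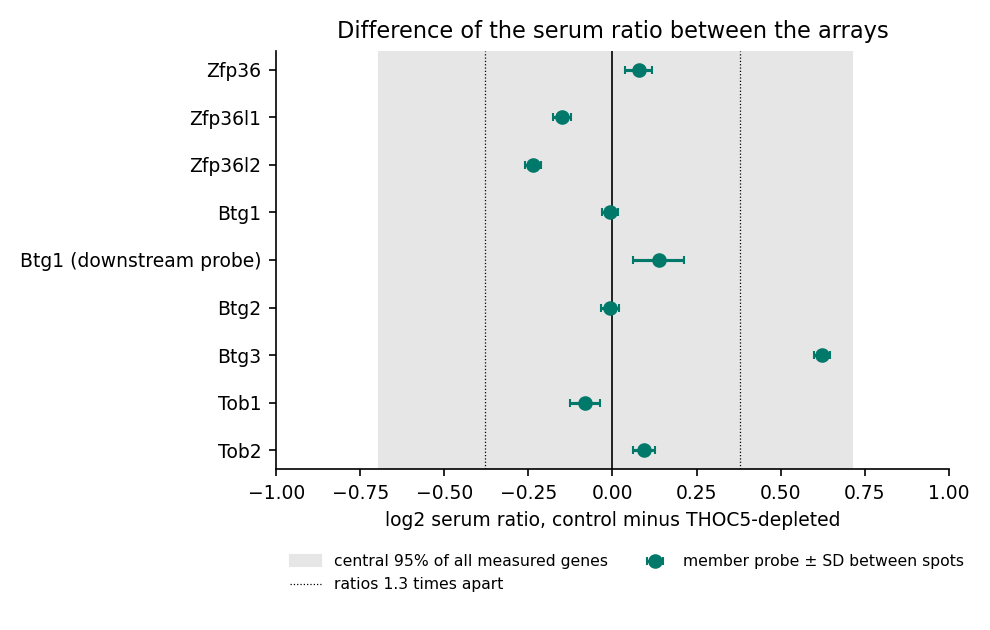
Log2 serum ratio of control minus THOC5-depleted cells for each member probe, with bars of 1 SD between spots of similar brightness (spread within arrays only), the central 95% of all measured genes (grey band) and the limit of 1.3 times (dotted lines). Btg3 at 0.62 is past a dotted line, Btg2 and the upstream probe of Btg1 are at -0.007, the downstream probe of Btg1 is at 0.14, and all 9 probes are inside the band.

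Levels between the arrays were compared after scaling them to one distribution, which is less precise than a ratio within an array. In unstimulated cells Btg2 was 1.35-fold lower in depleted than in control cells, Zfp36l1 1.26-fold lower and Tob1 1.23-fold lower. Zfp36 was 1.11-fold higher, Btg3 1.11-fold higher and Btg1 1.09-fold higher, while Zfp36l2 and Tob2 were at -0.01 and -0.006 on the log2 scale (depleted minus control). Without scaling, which put the median of all genes at -0.26, the signs of Zfp36, Btg1 and Btg3 turned. No member passed 1.5-fold, a limit that 10.1% of 17711 genes passed. The dim downstream probe of Btg1 was 1.43-fold higher in unstimulated depleted cells, and its log2 change exceeded that of the upstream probe by 0.38 (by 0.24 in serum-treated cells).

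In serum-treated cells Btg2 was again 1.35-fold lower with THOC5 depleted, and Btg3 was 1.38-fold lower. Btg2 was thus lower in both states, whereas Btg3 was lower with serum only. Tob1 (1.17-fold), Zfp36l1 (1.14-fold) and Tob2 (1.07-fold) were lower too. Zfp36 (1.05-fold), Btg1 (1.10-fold) and Zfp36l2 (1.17-fold) were higher in depleted cells. All 3 signs turned without scaling (log2 -0.21, -0.14 and -0.05), which put the median of all genes at -0.26. With scaling by the 75th percentile all 3 signs stayed (log2 0.07, 0.14 and 0.23). Of the 8 members, 0 passed 1.5-fold, against 11.5% of 17433 genes.

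Genes of the machinery that the members recruit are given next. Of 17 deadenylase genes (CCR4-NOT, PAN2-PAN3, Parn and poly(A)-binding proteins), all measured, 0 were changed 2-fold by serum on either array. Few of all genes were (2.36% up and 1.53% down in control cells, 0.865% and 0.258% in depleted cells). Between unstimulated cells 0 of the 17 differed 1.5-fold, against 10.1% of all genes. Only for Cnot11, a subunit of CCR4-NOT, did the ratios differ by 1.3 times or more (1.20 in control and 0.918 in depleted cells). Of all genes, 8.33% had a ratio that much higher in control and 10.2% in depleted cells. The median log2 ratio of the 17 was 0.04 in control and -0.07 in depleted cells. The lowest control ratio was that of Cnot8 (0.795), a catalytic subunit bound by BTG/TOB proteins, and the highest that of Pan3 (1.37), the adaptor of the PAN2 nuclease. In depleted cells these ratios were 0.972 and 1.31. Cnot7, the sister subunit of Cnot8, had ratios of 1.09 and 1.22.

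Of 15 decapping and 5′ decay genes, 0 passed 2-fold with serum, where few of all genes did (2.36% up and 1.53% down in control cells). Dcp1b, a decapping activator, had the lowest control ratio (0.682) and a depleted ratio of 1.14, and was the only gene of the list past 1.3 times. Of all genes, 8.33% passed that limit toward control and 10.2% toward depleted cells. Dcp2, the decapping enzyme, was 1.70-fold higher in unstimulated depleted cells from signals of only 48.1 and 73.7. Patl1, a scaffold of decapping, had the highest control ratio (1.37, with 1.17 in depleted cells).

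Of 10 other proteins that bind AU-rich or stem-loop elements, only Zc3h12a, an endonuclease also called Regnase-1, passed 2-fold. Its signals were 418 and 1016 in control cells and 317 and 493 in depleted cells. Its ratio was 2.43 in control and 1.55 in depleted cells, which is 1.56 times higher in control cells. Tia1 had the lowest control ratio (0.738, with 0.997 in depleted cells). Celf1, which binds GU-rich elements, was 1.96-fold higher in unstimulated depleted cells. The 6 kinases and partners known to act on or with the Zfp36 proteins had control ratios from 0.917 (Mapk3) to 1.09 (Ywhab), and 0 passed any of these limits. The shares of all genes past these limits are those given above.

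Transcripts reported as targets of the Zfp36 proteins are described here as a list written with earlier results known. Of 18, 16 were well above background in all channels. Tnf was so in none, and Cxcl2 missed only in unstimulated depleted cells. The control ratio of Cxcl2 was 5.86 (signals of 15.3 and 89.6), and it is left out of the counts that follow. In control cells 14 of the 16 were induced 2-fold or more and in depleted cells 10 were, against 2.36% and 0.865% of all genes. The median log2 ratio was 1.95 and 1.10. A ratio at least 1.3 times higher in control cells was found for 12, and one at least 1.3 times higher in depleted cells for 2, against 8.33% and 10.2% of all genes. Among genes induced 1.5-fold or more in control cells these shares were 66.0% and 0.559%. Among genes picked by the depleted array instead they were 36.0% and 17.8%. Whether the counts of the list differ from these shares was not tested.

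Csf2, a cytokine, had ratios of 38.5 in control and 7.36 in depleted cells. Ptgs2, the inducible cyclooxygenase, had 13.8 and 5.20, Lif, a cytokine, 13.6 and 4.74, and Ier3, an early survival gene, 7.90 and 3.18. The 2 in the other direction were the transcription factor Fos (52.2 and 93.4) and the MAP kinase phosphatase Dusp1 (3.21 and 5.76). Of the 16, the others past 2-fold in control cells were Il6, Cxcl1, Myc, Vegfa, Plk3, Pim1, Plau and Plaur. Their ratios ran from 2.22 (Il6) to 4.18 (Vegfa) there and from 1.41 (Plau) to 2.48 (Cxcl1) in depleted cells. Plk2, a stress-induced kinase, passed in depleted cells only (1.93 and 2.02). Fos led the list in control cells, and Ccnd1, cyclin D1, had its lowest ratio there (0.841, with 0.925 in depleted cells). Of the 16, 5 differed 1.5-fold between unstimulated cells, against 10.1% of 17711 genes. Il6 (2.91-fold), Pim1 (1.72-fold) and Ptgs2 (1.69-fold) were higher in depleted cells, and Csf2 (0.531 of control) and Lif (0.581) lower.

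**Figure D4:**
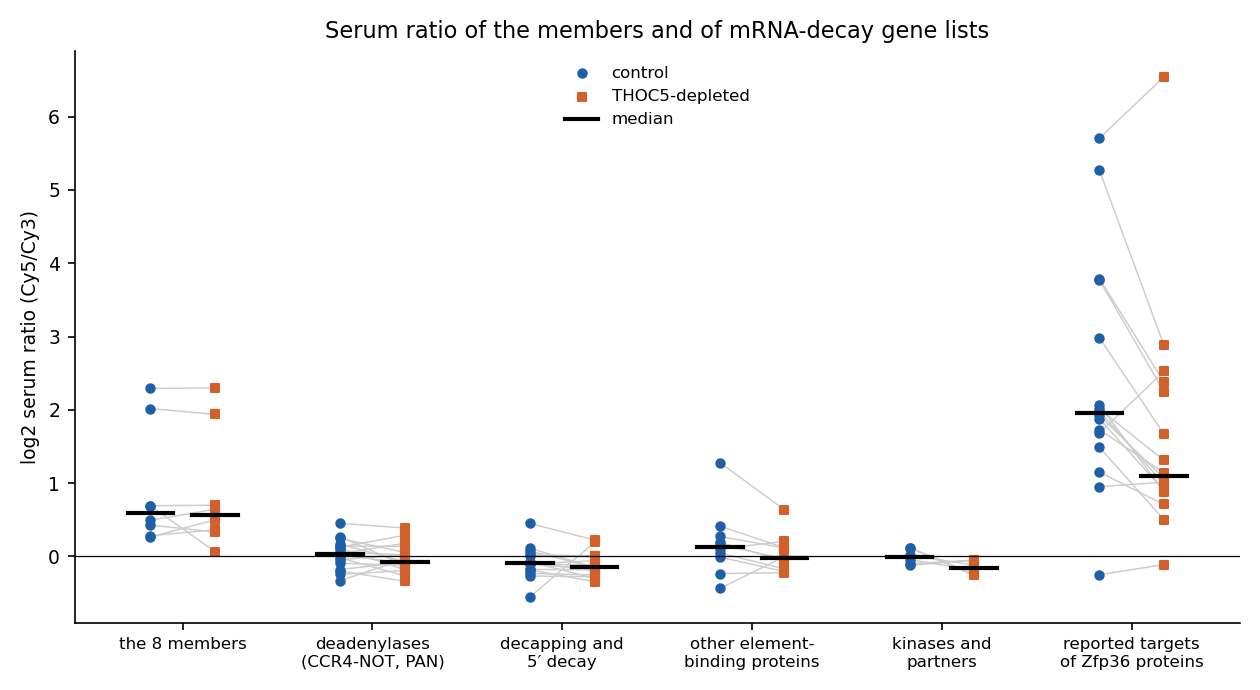
Log2 serum ratio in control (blue) and THOC5-depleted cells (orange) of the 8 members and of the measured genes of 5 lists, with a line per gene and black bars for medians. The members' medians are 0.59 and 0.57, those of the deadenylases 0.04 and -0.07, and those of the reported targets 1.95 and 1.10.

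Outside the 8 members, the related Zfp36l3 had signals of only 60 to 78 and ratios of 1.18 and 1.22, and Btg4 was not well above background on the depleted array. Over 17194 genes, those nearest to Zfp36 in both serum ratios and in the unstimulated level difference were 1700064E03Rik, Sgk1 and Klf4, at log2 distances of 0.24, 0.37 and 0.42. Sgk1, a serum-regulated kinase, had ratios of 4.56 and 3.55, and Klf4, a transcription factor, 3.13 and 3.39. Nearest to Btg2 were 1810011O10Rik, Aoc3 and Ier2, at 0.28, 0.33 and 0.57. Ier2, an immediate early gene, had ratios of 5.56 and 6.22.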

How the data were processed

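The authors hybridized 2 Agilent arrays and deposited the scanner text (Agilent Feature Extraction 10.7.3.1, named in the submitters' notes; mm9 positions). Per the file headers, the deposited processed signals are intensities, background-subtracted and dye-normalized (linear and LOWESS) within each array but not scaled between arrays. The deposited log ratio is the log10 of Cy5 over Cy3. The authors' series table held that log10 ratio unsigned and served as an alternative. The number of columns not mapped to a sample is 0.

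Outlier spots were left out, and log2 ratios were taken from the processed signals. The brightest probe stood for a gene in counts. Levels were scaled with limma 3.58.1 (Aquantile). Measured genes were well above background in the channels compared. Limits were 2-fold and 1.5-fold for serum, 1.3 times for ratios between arrays and 1.5-fold for levels. The SD beside a member is the median over probes of 10 spots within 2-fold of its brightness.

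The members and lists were chosen with earlier results of these data known. Named were all members and, of lists, genes past 2-fold with serum or 1.5-fold between unstimulated cells and the lowest and highest. Cnot7, Zfp36l3 and Btg4 were named for their family or role, and Cnot11, Dcp1b and Tia1 also as past 1.3 times. With 1 array per condition no test was made. Scripts (Python 3.11.15, R 4.3.3) were tested on simulated data. Alternatives were normexp (offset 50) with loess, no dye normalization, a floor of 50, other limits, probe means and other scalings.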

Additional observations from a re-analysis of the deposited data

How the results depend on the processing

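Of 65 alternative values of the counts and medians, 54 stayed and 11 moved, and of 200 for single genes, 140 stayed and 60 moved. Part of those that stayed could not move: the series table holds the same ratios, no member signal was under the floor, each member probe had 1 spot, and probe means bear on Btg1 alone. No called value reversed. Without dye normalization all genes shifted (median log2 0.83 in control and 0.75 in depleted cells), and 8 members passed 2-fold on each array, with log2 medians of 1.502 and 1.406. Relative to that shift, 2 passed on each array. A limit of 1.5-fold for serum gave 4 and 4 members. A limit of 2-fold for the difference of ratios gave 0, as did leaving out Btg3, an alternative chosen after seeing the data. Scaling the ratios of both arrays to one spread (0.289 in control and 0.205 in depleted cells before) put 2 members, Zfp36 (-0.62) and Btg2 (-0.82), higher in depleted cells. Their near-equal ratios thus depend on that choice. Without scaling between arrays, 2 members in unstimulated (Zfp36l1 and Btg2) and 2 in serum-treated cells (Btg2 and Btg3) passed 1.5-fold, with all genes at a median of -0.26. The Btg3 difference ranged from 0.50 to 0.76. The sign turned under some alternative for the small level differences of Zfp36, Zfp36l2, Btg1 and unstimulated Btg3, and for the ratio differences of Zfp36, Btg1, Btg2 and Tob2. No paired analysis was possible because each group has 1 array. That number limits precision, and no error between cultures is known.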
